A study of Mus musculus with 14 samples.

Results

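The 43 genes described here encode proteins that copy DNA or divide the cell, and they were taken by symbol from the 43548 genes of a liver expression table. Of these, 13 serve DNA replication and 30 serve mitosis. All 43 were found in the table. The study asked how loss of Cul3 from the liver alters its RNA under each of 2 diets. Cul3 encodes cullin 3, the scaffold of a family of ubiquitin ligases.

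All mice were C57BL/6 with a floxed Cul3 gene, and every mouse received an adeno-associated virus by tail vein after 13 weeks on its diet, then stayed on that diet for 5 weeks. KO livers received AAV-TBG-Cre, in which the hepatocyte-specific TBG promoter drives Cre, so other liver cell types are not its target. WT livers received AAV-TBG-Null, which carries no Cre. The diets were WD (Western diet) and CD (control diet). The 14 libraries form 4 groups, KO on WD (4 libraries), WT on WD (4), KO on CD (3) and WT on CD (3). Whether every library is its own animal is not stated in the labels. The p-values therefore reflect variation among libraries, part of which may be technical.

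A cell that enters S phase first makes the replication proteins, largely through E2F transcription factors, and later the mitotic proteins, whose genes are held silent in resting cells by the DREAM complex and switched on by B-MYB and FOXM1. Adult hepatocytes rarely divide, but they re-enter the cell cycle after injury or loss of liver mass. Cullin 3 ligases act in mitosis by moving Aurora B on the chromosomes, and they also mark cyclin E for degradation. In a bulk liver sample, a change in the number of cells of a type and a change in RNA per cell cannot be told apart.

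Values are FPKM, a fragment count divided by transcript length and library size. The libraries were read from tags near the 3′ end of each transcript, so FPKM is compared between libraries for 1 gene and not between genes. A gene was called when the adjusted p of limma was under 0.05, on log2(FPKM + 1), testing the 10870 genes that reached 1 FPKM in 3 or more libraries. The error given with a log2 fold change is its SE. Fold changes on this scale understate the change of genes at low FPKM. FPKM sums were 443818 to 523079 per library. A rough size from the lowest FPKM steps was 3616000 to 11084000 reads per library, the smallest being KO on CD replicate 3. A gene at 0 is said to be listed at 0, because an exact 0 can be a failed estimate. Summed hepatocyte markers (12 genes, none listed at 0 throughout a group) ranged from 4714 to 8975 FPKM over all libraries. Cul3 was at 18.5 to 26.6 FPKM in KO on WD, against 7.46 to 25.9 FPKM in WT on WD, and at 11.3 to 18.3 FPKM in KO on CD, against 23.9 to 29.5 FPKM in WT on CD. Which exons are floxed is not stated and a 3′ tag may lie outside them, so neither deletion nor labelling can be checked this way. The libraries were split into 2 sets by shared low-value ratios, with the number of sets fixed in advance. Set 1 held all of WT on CD, WT on WD replicates 3 and 4, and KO on WD replicates 1, 2 and 4, while set 2 held all of KO on CD, WT on WD replicates 1 and 2, and KO on WD replicate 3. On CD, the set and the genotype therefore cannot be told apart.

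On WD, 8 of the 18 tested mitosis genes and 2 of the 12 tested replication genes rose in KO livers over WT livers. Of the 30 members that passed the filter on low values, 10 rose and 0 fell by limma, where 6.01% of all tested genes rose and 1.0% fell. At an unadjusted p under 0.05, 18 of the 30 were higher and 0 were lower in KO livers, where 19.9% of all tested genes were higher and 3.49% lower. The 10 were 8 mitosis genes (Cdk1, Top2a, Ccnb2, Ccna2, Kif23, Cdca3, Ube2c and Ccnb1) and 2 replication genes (Tk1 and Mcm6). The median log2 fold change was 0.90 over the 18 tested mitosis genes and 0.38 over the 12 tested replication genes, against 0.23 over all tested genes. The filter itself favoured genes that are high in KO livers on WD. Of the 30 members, 8 passed only through those libraries, among them the called genes Ccna2, Ccnb1, Ccnb2, Cdca3 and Kif23. For 3 of the 8 (Ccnb1, Ccnb2 and Cdca3) no other library was at 1 FPKM. The counts and medians over the tested members are therefore a description. With no filter the medians were 0.66 for the 30 mitosis genes, 0.36 for the 13 replication genes and 0.07 for all genes. The 13 members below the filter were Aurkb, Birc5, Bub1, Bub1b, Foxm1, Hmmr, Kif11, Mad2l1, Mki67, Plk1, Prc1, Tpx2 and the helicase subunit Mcm5. With no filter, all 43 members entered the fit and again 10 rose and 0 fell, where 2.61% of 19683 genes rose, and 39 of the 43 fold changes were above 0 (90.7%), as were 63.8% of those of all genes.

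**Figure D1:**
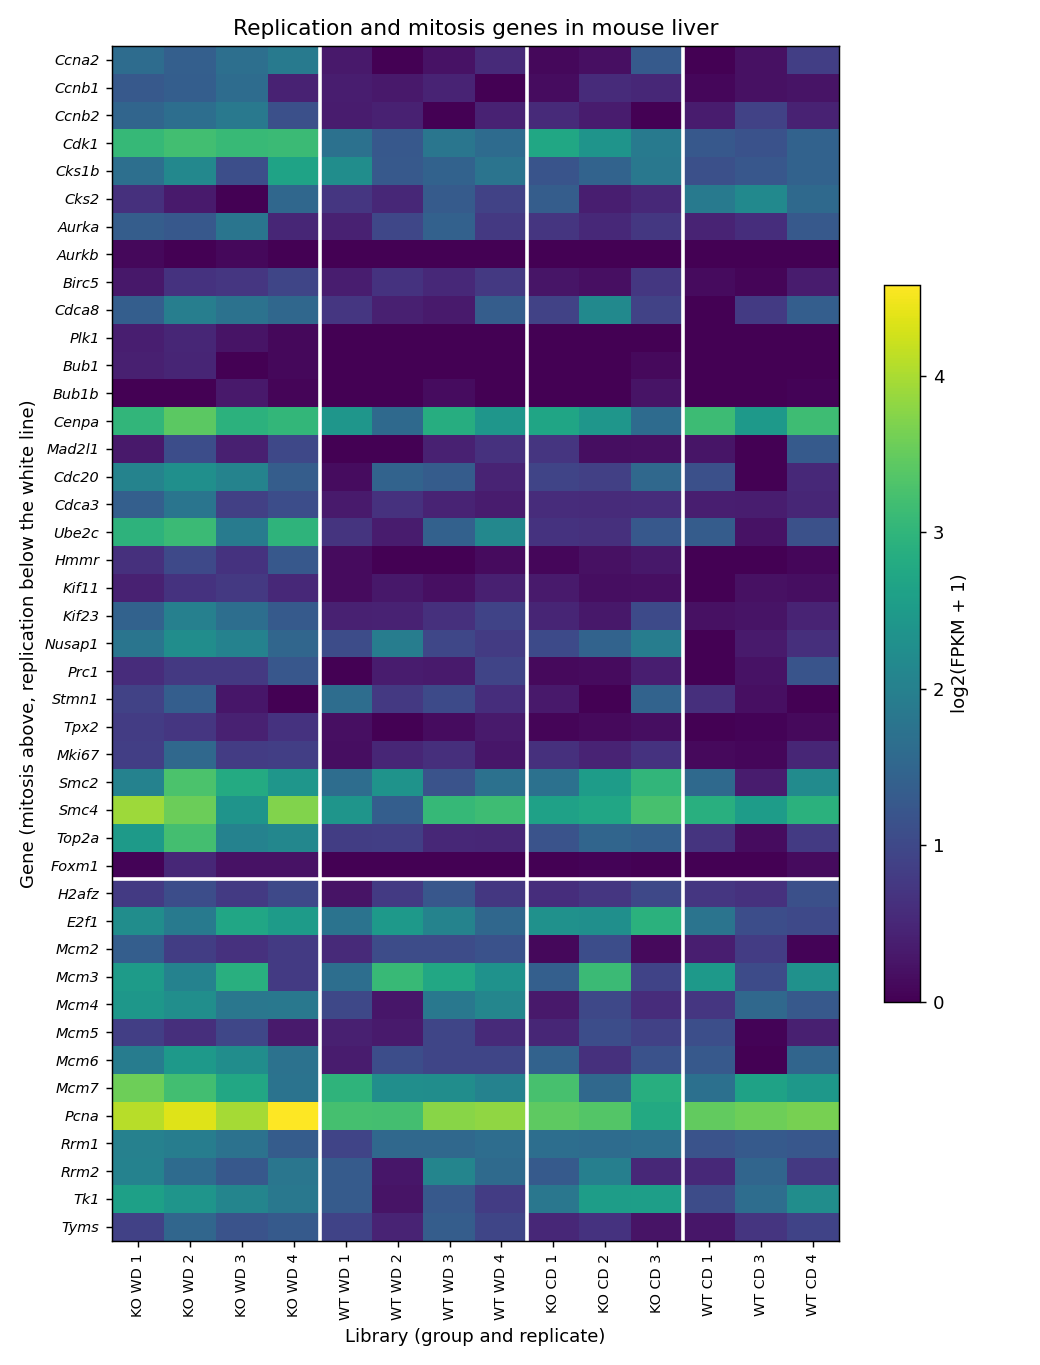
Each row is 1 of the 43 genes and each column 1 of the 14 libraries, and the colour gives log2(FPKM + 1), on a scale that should be read along a row and not down a column. The 4 KO on WD columns stand at the left and are brighter than the 4 WT on WD columns for Cdk1, Top2a, Ccna2, Ccnb2 and Kif23, while rows such as Mcm2, Mcm3, Stmn1 and Cks2 show no such split.

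Cdk1 is the kinase that drives entry into mitosis. It measured 7.34, 8.13, 7.44 and 7.68 FPKM in the 4 KO livers on WD, against 2.27, 1.39, 2.46 and 2.02 FPKM in the 4 WT livers on WD. Every KO value lay above every WT value, and the means of 7.65 ± 0.350 FPKM in KO and 2.03 ± 0.467 FPKM in WT (SD, n = 4 each) were 3.76-fold apart. The log2 fold change was 1.52 ± 0.20 (SE), with a limma adjusted p of 0.000374. Cdk1 kept its call without any 1 of the 14 libraries and within set 1 alone, which holds 3 KO and 2 WT livers on WD (log2 fold change 1.43, limma adjusted p = 0.00890). Cdk1 lies on the minus strand at chr10:69335146-69352938 of mm10.

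Top2a encodes topoisomerase II alpha, which untangles sister chromatids. Its values were 4.67, 8.31, 3.09 and 3.36 FPKM in KO livers on WD, against 0.789, 0.812, 0.421 and 0.408 FPKM in WT livers on WD. Replicate 2 was the highest KO liver, and the lowest KO liver still exceeded every WT liver. The log2 fold change was 1.80 ± 0.26 (SE), with a limma adjusted p of 0.000880, and 2.12 within set 1 (limma adjusted p = 0.0196). Within set 1, 2 members were called, Top2a and Cdk1, where 2.3% of all tested genes rose. Top2a also kept its call without any 1 library.

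The B-type and A-type cyclins are the partners that activate CDK1. Ccnb2 measured 1.81, 2.15, 2.60 and 1.18 FPKM in KO livers on WD, against 0.276, 0.345, 0 and 0.349 FPKM in WT livers on WD. No KO liver overlapped a WT liver, and the log2 fold change was 1.23 ± 0.22 (SE), with a limma adjusted p of 0.00436. Ccna2, the cyclin of S phase and early mitosis, measured 2.07, 1.62, 2.20 and 2.70 FPKM in KO livers on WD, against 0.247, 0, 0.164 and 0.465 FPKM in WT livers on WD. Its log2 fold change was 1.37 ± 0.28 (SE), with a limma adjusted p of 0.0101, and both cyclins kept their call without any 1 library. Both calls ended within set 1 alone. That of Ccnb2 also ended with the replicate number as a block, and that of Ccna2 with no filter and an offset of 0.1 FPKM. Exosc9 overlaps the 3′ end of Ccna2 on the opposite strand, at 1.14 to 4.49 FPKM in KO and 0.996 to 2.21 FPKM in WT on WD, and the sources used here do not say whether counting used the strand. Ccnb1 measured 1.42, 1.57, 2.08 and 0.348 FPKM in KO livers on WD, against 0.286, 0.239, 0.375 and 0 FPKM in WT livers on WD. Replicate 4 of KO fell below the highest WT liver, so the groups overlapped. Ccnb1 had the largest adjusted p of the 10 (log2 fold change 0.89 ± 0.24, limma adjusted p = 0.0424), and the call ended without any 1 of 12 of the 14 libraries. Both B-type cyclins have an annotated processed pseudogene, so their values are uncertain where reads match both copies. The CDK-binding subunits did not pass the test. The log2 fold change was 0.21 for Cks1b (limma adjusted p = 0.719) and -0.24 for Cks2 (limma adjusted p = 0.688), and that of Cks1b was -0.08 under median centring.

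The promoters of the called members with the smallest p in each list are shown because mitotic and replication genes are known to carry different promoter elements. They are RefSeq promoters on GRCm38.p6, from 250 bases before to 50 bases from the start of transcription on, all on the minus strand, written 5′ to 3′ along the gene. They lie at chr10:69352863-69353162 (Cdk1), chr11:99024140-99024439 (Top2a), chr9:70421505-70421804 (Ccnb2), chr11:117825965-117826264 (Tk1) and chr1:128359656-128359955 (Mcm6). Capitals mark matches on either strand to CHR elements (TTTGAA or TTCGAA, the DREAM and B-MYB element of mitotic genes), to the CCAAT box, and to E2F sites (TTTCGCGC, TTTGGCGC, TTTCCCGC or TTTGGCGG).
Cdk1: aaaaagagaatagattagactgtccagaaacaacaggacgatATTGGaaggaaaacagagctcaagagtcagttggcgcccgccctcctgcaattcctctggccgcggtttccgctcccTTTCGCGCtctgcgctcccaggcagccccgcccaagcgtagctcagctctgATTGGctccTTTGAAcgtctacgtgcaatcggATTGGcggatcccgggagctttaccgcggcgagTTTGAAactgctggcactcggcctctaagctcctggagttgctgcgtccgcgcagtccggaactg
Top2a: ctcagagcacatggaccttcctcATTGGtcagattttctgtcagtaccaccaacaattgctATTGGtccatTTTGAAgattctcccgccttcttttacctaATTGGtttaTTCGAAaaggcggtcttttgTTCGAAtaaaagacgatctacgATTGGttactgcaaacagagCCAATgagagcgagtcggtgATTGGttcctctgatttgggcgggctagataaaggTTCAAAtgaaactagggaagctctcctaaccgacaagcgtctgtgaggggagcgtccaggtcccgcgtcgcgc
Ccnb2: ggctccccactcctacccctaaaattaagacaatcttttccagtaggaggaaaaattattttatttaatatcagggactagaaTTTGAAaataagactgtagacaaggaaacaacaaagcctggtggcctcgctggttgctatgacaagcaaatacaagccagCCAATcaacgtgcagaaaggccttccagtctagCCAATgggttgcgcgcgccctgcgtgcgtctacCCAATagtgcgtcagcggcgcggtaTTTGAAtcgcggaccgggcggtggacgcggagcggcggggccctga
Tk1: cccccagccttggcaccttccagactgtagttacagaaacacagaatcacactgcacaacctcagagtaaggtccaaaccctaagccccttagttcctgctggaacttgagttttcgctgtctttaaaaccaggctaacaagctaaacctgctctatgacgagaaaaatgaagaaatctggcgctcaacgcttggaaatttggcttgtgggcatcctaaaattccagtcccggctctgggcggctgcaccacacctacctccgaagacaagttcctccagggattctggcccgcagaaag
Mcm6: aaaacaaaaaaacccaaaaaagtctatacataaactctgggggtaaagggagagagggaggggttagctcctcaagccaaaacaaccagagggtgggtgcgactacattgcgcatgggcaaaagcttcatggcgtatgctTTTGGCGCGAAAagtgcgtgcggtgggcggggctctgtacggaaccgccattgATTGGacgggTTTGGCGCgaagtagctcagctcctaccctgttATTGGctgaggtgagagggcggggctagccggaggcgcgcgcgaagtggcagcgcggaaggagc
Cdk1 holds 2 CHR matches, 3 CCAAT matches and 1 E2F match, Top2a holds 4 CHR and 6 CCAAT matches, and Ccnb2 holds 2 CHR and 3 CCAAT matches. Mcm6 holds 3 E2F matches, of which TTTGGCGC on the strand shown and TTTCGCGC on the other strand overlap, and 2 CCAAT matches. Tk1 holds none of these letters in this window.

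Over the members, 35 of 43 had a promoter in the RefSeq table, with 37 promoters among them. A CHR match stood in 20 of 25 mitosis promoters (80.0%) and in 2 of 12 replication promoters (16.7%), against 19.2% of all 32851 promoters of the same length. The CCAAT box was in 22 of 25 mitosis promoters (88.0%) and 9 of 12 replication promoters (75.0%), against 37.4% of all promoters. E2F matches ran the other way, in 1 of 25 mitosis promoters (4.0%), that of Cdk1, and in 4 of 12 replication promoters (33.3%), against 2.37% of all promoters. Among the mitosis genes called on WD with a promoter, Cdk1, Top2a, Ccnb2, Kif23, Cdca3 and Ube2c held both a CHR and a CCAAT match, and Ccnb1 held CCAAT alone. Nusap1, called on CD, held none of the motifs. Plk1, Cdc20, Aurka, Mki67 and Hmmr held both as well, and these matches are descriptions of letters and not of bound sites.

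**Figure D2:**
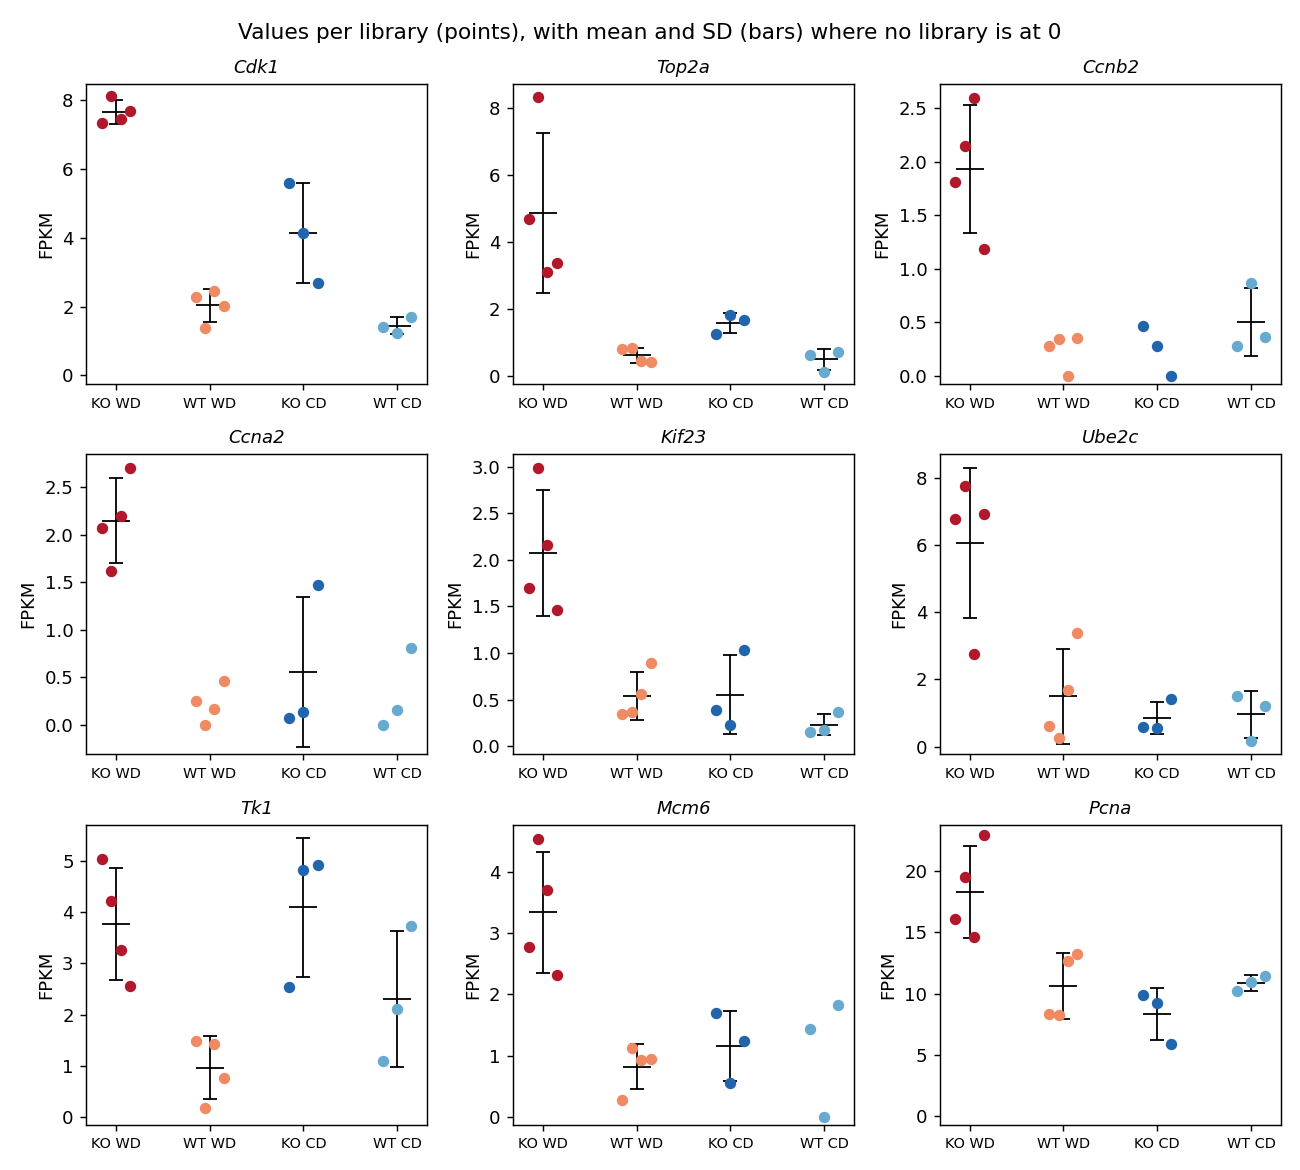
Each panel gives FPKM (y axis) of 1 gene in the 14 libraries (points) by group (KO WD, WT WD, KO CD, WT CD), with bars for the mean and SD in groups where no library is listed at 0. For Cdk1, Top2a, Ccnb2, Ccna2, Kif23, Tk1, Mcm6 and Pcna the 4 KO on WD points lie above the 4 WT on WD points, and for Ube2c KO replicate 3 at 2.76 FPKM lies below the highest WT liver at 3.39 FPKM.

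Of the tested genes of the spindle and cytokinesis machinery, Kif23 was called, while Nusap1 (log2 fold change 0.70, limma adjusted p = 0.158) and Stmn1, which destabilizes microtubules (-0.37, limma adjusted p = 0.571) were not. Of the partners of the anaphase-promoting complex (APC/C), the ligase that ends mitosis, Ube2c and Cdca3 were called and Cdc20 was not. Kif23, a kinesin of the central spindle needed for cytokinesis, measured 1.70, 2.99, 2.16 and 1.46 FPKM in KO livers on WD, against 0.343, 0.361, 0.557 and 0.895 FPKM in WT livers on WD. The groups did not overlap (log2 fold change 0.99 ± 0.22, limma adjusted p = 0.0157). Ube2c, the ubiquitin-conjugating enzyme of the APC/C, measured 6.78, 7.75, 2.76 and 6.92 FPKM in KO livers on WD, against 0.613, 0.269, 1.69 and 3.39 FPKM in WT livers on WD. Replicate 3 of KO lay below replicate 4 of WT, so the groups overlapped (log2 fold change 1.60 ± 0.40, limma adjusted p = 0.0289). Cdca3, an F-box-like protein that triggers mitotic entry, measured 1.63, 2.42, 0.822 and 1.11 FPKM in KO livers on WD, against 0.256, 0.575, 0.375 and 0.266 FPKM in WT livers on WD. Every KO value exceeded every WT value (log2 fold change 0.83 ± 0.20, limma adjusted p = 0.0251). The call of Kif23 ended without KO replicate 2 or WT replicate 1 on WD. The call of Cdca3 ended without KO replicate 1 or 2 or WT replicate 1 or 4 on WD, and that of Ube2c without KO replicate 1, 2 or 4 or WT replicate 1 or 2 on WD. Cdc20, the APC/C activator, averaged 2.91 ± 0.964 FPKM in KO and 0.936 ± 0.815 FPKM in WT on WD (SD, n = 4 each) and did not pass the test (log2 fold change 1.08, limma adjusted p = 0.0754).

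Several mitotic genes were too low for the filter, and for these the levels themselves are the result. Plk1, a kinase of mitotic entry and spindle assembly, measured 0.300, 0.404, 0.182 and 0.0701 FPKM in the 4 KO livers on WD and was listed at 0 in the other 10 libraries, including the WT on WD library of largest rough size. With no filter Plk1 was called (log2 fold change 0.30 ± 0.06, limma adjusted p = 0.0257). The fit shares 1 estimate of the spread over all groups, and the other groups hold only values of 0. The SE and p of Plk1 therefore do not measure the spread among the KO livers on WD. Aurkb, the Aurora kinase whose chromosomal position cullin 3 ligases control, was listed above 0 in KO on WD replicates 1 and 3 alone, at 0.0742 and 0.0747 FPKM. Foxm1, the transcription factor of late cell cycle genes, measured 0.0281, 0.431, 0.172 and 0.165 FPKM in KO livers on WD and was listed at 0 in all 4 WT livers on WD. Its log2 fold change of 0.25 did not pass the test (limma adjusted p = 0.113, no filter). Mki67, which coats mitotic chromosomes and is the usual marker of proliferating cells, measured 0.794, 1.91, 0.760 and 0.812 FPKM in KO livers on WD, against 0.131, 0.402, 0.543 and 0.209 FPKM in WT livers on WD. Every KO liver was higher, with replicate 2 far above the other KO livers, and the adjusted p missed the threshold (log2 fold change 0.62 ± 0.18, limma adjusted p = 0.0895, no filter). Hmmr, a spindle-binding protein, and Tpx2, the activator of Aurora A, rose with no filter. Hmmr measured 0.556 to 1.39 FPKM in KO livers on WD, against 0 to 0.0999 FPKM in WT livers on WD (log2 fold change 0.83 ± 0.12, limma adjusted p = 0.00323). Tpx2 measured 0.331 to 0.758 FPKM in KO, against 0 to 0.254 FPKM in WT (0.49 ± 0.09, limma adjusted p = 0.0125). Outside KO on WD, Hmmr reached at most 0.223 FPKM and Tpx2 at most 0.254 FPKM. Their SE and p therefore also draw on groups near 0, as for Plk1. The call of Tpx2 ended with no filter and an offset of 0.1 FPKM (limma adjusted p = 0.0539).

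None of the following mitosis genes passed the test on WD. The condensin subunits Smc2 and Smc4, which compact chromosomes, had log2 fold changes of 0.91 (limma adjusted p = 0.207) and 0.89 (limma adjusted p = 0.193). Smc2 measured 3.08 to 8.78 FPKM in KO livers on WD, against 1.25 to 4.14 FPKM in WT livers on WD, and these overlapped. Cdca8, a subunit of the chromosomal passenger complex, measured 1.58 to 2.91 FPKM in KO livers on WD, against 0.255 to 1.56 FPKM in WT livers on WD (log2 fold change 0.95, limma adjusted p = 0.127). Its lowest KO liver lay just above its highest WT liver. Aurka, the Aurora kinase of the spindle poles, had a log2 fold change of 0.33 (limma adjusted p = 0.525), which was -0.05 in set 1 alone. Below the filter, the spindle checkpoint gene Bub1 was at 0 to 0.388 FPKM in KO livers on WD and listed at 0 in all WT livers on WD (limma adjusted p = 0.175, no filter). The spindle motor Kif11 was at 0.332 to 0.703 FPKM in KO, against 0.0971 to 0.319 FPKM in WT on WD (limma adjusted p = 0.0672, no filter). For Birc5, Bub1b, Mad2l1 and Prc1, KO and WT values on WD overlapped, and the highest level of any of them there was 1.35 FPKM.

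Among the replication genes, 2 of the 12 tested rose on WD, where 6.01% of all tested genes rose, and 0 rose under median centring or quantile normalization. Tk1, thymidine kinase of the nucleotide salvage pathway, measured 5.04, 4.22, 3.26 and 2.56 FPKM in KO livers on WD, against 1.49, 0.187, 1.42 and 0.757 FPKM in WT livers on WD. All KO livers were above all WT livers (log2 fold change 1.31 ± 0.31, limma adjusted p = 0.0229), and the call ended without KO replicate 1 or 2 or WT replicate 2 on WD. Gm20708 overlaps the 3′ end of Tk1 on the opposite strand at 38.1 to 53.9 FPKM in KO and 22.6 to 55.8 FPKM in WT on WD, so how much of the Tk1 value comes from it was not tested. Mcm6, a subunit of the replicative helicase MCM2-7, measured 2.79, 4.56, 3.72 and 2.32 FPKM in KO livers on WD, against 0.272, 1.12, 0.929 and 0.939 FPKM in WT livers on WD. The groups did not overlap (log2 fold change 1.26 ± 0.32, limma adjusted p = 0.0330), and the call ended without KO replicate 1, 2 or 3 or WT replicate 1 or 4 on WD. Pcna, the sliding clamp of DNA polymerase, measured 16.1, 19.5, 14.6 and 22.9 FPKM in KO livers on WD, against 8.36, 8.26, 12.6 and 13.2 FPKM in WT livers on WD. Every KO value was higher, and the adjusted p lay just over the threshold (log2 fold change 0.74 ± 0.21, limma adjusted p = 0.0515) and just under it with the library set as a term (limma adjusted p = 0.0489), where 11 members were called and 6.72% of all tested genes rose. The other MCM subunits did not pass the test. Mcm4 had a log2 fold change of 0.79 (limma adjusted p = 0.203), Mcm7 of 0.44 (limma adjusted p = 0.565), Mcm2 of -0.06 (limma adjusted p = 0.920) and Mcm3 of -0.40 (limma adjusted p = 0.687). Mcm2 turned above 0 without KO replicate 3 or WT replicate 4 on WD, and Mcm3 without KO replicate 4 on WD. The nucleotide enzymes Rrm1, Rrm2 and Tyms had log2 fold changes of 0.34, 0.36 and 0.29, and the histone variant gene H2afz one of 0.16, without a call. Of these, Tyms and H2afz were below 0 under quantile normalization and Rrm2 in set 1 alone. E2f1, the activator of S phase genes, measured 3.73, 2.69, 5.50 and 4.69 FPKM in KO livers on WD, against 2.33, 4.50, 3.13 and 1.87 FPKM in WT livers on WD. The KO and WT values overlapped (log2 fold change 0.39 ± 0.27, limma adjusted p = 0.393).

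Counted without a model, KO lay wholly above WT on WD for 17 of the 43 members and wholly below for 0, where 7.47% of genes above 0 in at least 1 library lay wholly above and 1.37% wholly below. The 17 were 14 mitosis genes (Ccna2, Ccnb2, Cdca3, Cdca8, Cdk1, Cenpa, Foxm1, Hmmr, Kif11, Kif23, Mki67, Plk1, Top2a and Tpx2) and 3 replication genes (Mcm6, Pcna and Tk1). Per library, the mean log2(FPKM + 1) of the 30 mitosis genes was 1.24 to 1.58 in KO livers on WD, against 0.62 to 0.80 in WT livers on WD, and these ranges did not overlap. The mean of the 13 replication genes was 1.66 to 2.10 in KO livers on WD, against 1.28 to 1.78 in WT livers on WD, and these ranges overlapped. KO on WD replicate 2 was the highest of its group for 19 of the 43 members. Without it, 4 members were called on WD, and these were Cdk1, Top2a, Ccnb2 and Ccna2. Shares of all tested genes are not given for fits with 1 library left out, so such counts have no background beside them.

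**Figure D3:**
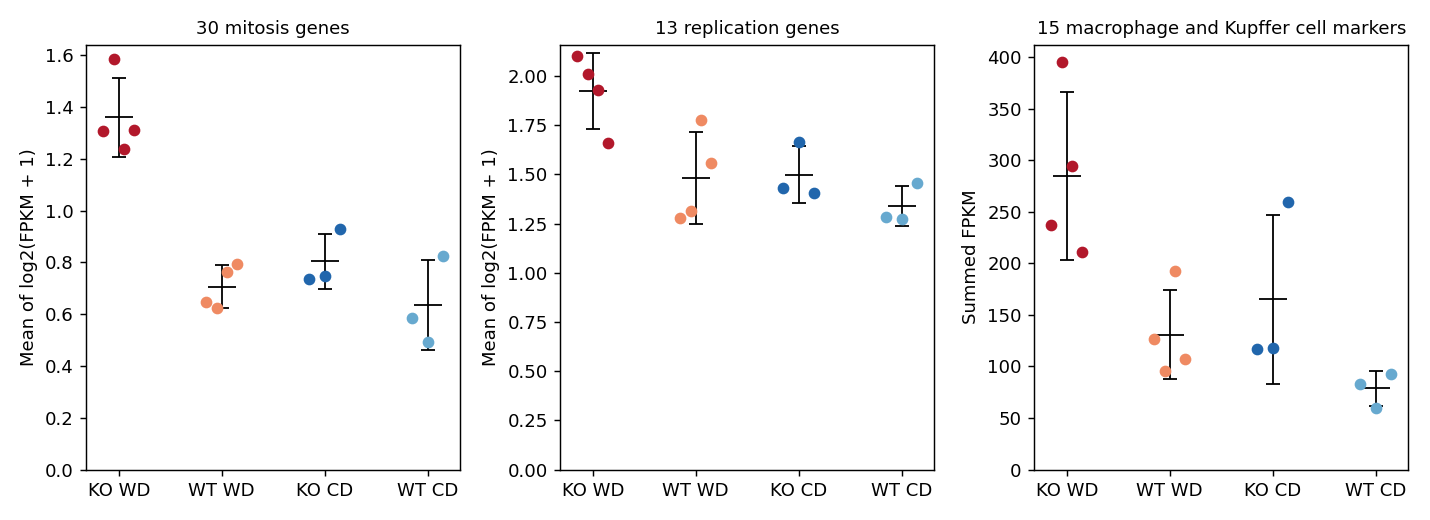
Points are the 14 libraries by group (KO WD, WT WD, KO CD, WT CD), with bars for the mean and SD. The left and middle panels give the mean log2(FPKM + 1) of the 30 mitosis genes and the 13 replication genes, and the right panel the summed FPKM of 15 macrophage and Kupffer cell markers. The mitosis means of KO on WD (1.24 to 1.58) stand above the other 3 groups (0.49 to 0.93), and the marker sums of KO on WD (211 to 395 FPKM) stand above those of WT on WD.

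The general level of the libraries moved in the same direction. The median of log2(FPKM + 1) over tested genes was 2.48 to 2.59 in KO livers on WD, against 2.14 to 2.37 in WT livers on WD. When each library was centred on that median, the median log2 fold change of all tested genes was -0.06. That of the tested mitosis genes was 0.61 and that of the tested replication genes 0.09, over members chosen by the same filter. Under centring 4 members rose and 0 fell (Cdk1, Top2a, Ccnb2 and Ccna2), where 2.09% of all tested genes rose, and over all tested genes 227 rose and 230 fell, against 653 and 109 without centring. Quantile normalization called the same 4 members, where 2.52% of all tested genes rose.

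Markers of some other liver cells moved with these results as well. Summed over 15 macrophage and Kupffer cell markers, none listed at 0 throughout, FPKM was 211 to 395 in KO livers on WD, against 96.0 to 192.5 in WT. Of these markers, 12 were tested and 5 rose (Clec4f, C1qc, Vsig4, Ly6c2 and Cd68), where 6.01% of all tested genes rose. Summed over 10 endothelial markers, FPKM was 121 to 167 in KO, against 59.3 to 120.2 in WT on WD. Of these, 9 were tested and 2 rose (Lyve1 and Oit3). Summed over 14 T and NK cell markers, FPKM was 3.76 to 7.74 in KO, against 1.28 to 2.80 in WT on WD, with Nkg7, Ncr1 and Trac listed at 0 in every library of both groups. Of the 14, 2 were tested and 0 were called, with 1 fold change above 0 and 1 below. Sums overlapped for 10 B and plasma cell markers (12.0 to 34.0 FPKM in KO, against 9.37 to 22.15 FPKM in WT, with Cd79a and Pax5 at 0), for 8 neutrophil markers (29.0 to 215 FPKM in KO, against 11.1 to 140 FPKM in WT, with Mpo at 0) and for 12 hepatocyte markers (4980 to 6440 FPKM in KO, against 4714 to 6182 FPKM in WT). Of 5 tested B and plasma cell markers 1 rose by limma, as did 1 of 2 tested cholangiocyte markers. Cholangiocyte sums overlapped, at 5.79 to 12.0 FPKM in KO, against 4.62 to 23.9 FPKM in WT on WD. Stellate cell and fibroblast sums overlapped too, at 137 to 180 FPKM in KO, against 126 to 190 FPKM in WT, and 0 of 7 tested markers were called. Erythroid sums overlapped at 504 to 779 FPKM in KO, against 337 to 1249 FPKM in WT, and 0 of 5 tested markers were called. The part of these cells in the results on mitosis genes was not tested.

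On CD, few of the genes were called. Of the 30 tested members, 3 rose in KO livers (Cdk1, E2f1 and Nusap1) and 0 fell by limma, where 11.7% of all tested genes rose and 3.35% fell. The members' share was near this background. At an unadjusted p under 0.05, 5 were higher and 1 was lower (16.7% and 3.33%), where 22.8% of all tested genes were higher and 10.7% lower. The median log2 fold change was 0.23 for the tested mitosis genes and 0.08 for the tested replication genes, against 0.18 for all tested genes. With each library centred on its median, 713 of all tested genes rose and 585 fell, against 1269 and 364 without centring. With no filter, 2 of the 43 members rose, where 4.69% of all genes rose. KO lay wholly above WT for 6 members (Cdca3, Cdk1, E2f1, Nusap1, Rrm1 and Top2a) and wholly below for 2 (Cks2 and Pcna), where 16.5% and 9.94% of genes above 0 in at least 1 library did.

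Cdk1 on CD measured 5.60, 4.14 and 2.69 FPKM in KO livers, against 1.41, 1.22 and 1.71 FPKM in WT livers. No KO value reached down to a WT value, and the log2 fold change was 1.04 ± 0.23 (SE), with a limma adjusted p of 0.0112. E2f1 measured 3.96, 3.88 and 6.59 FPKM in KO livers on CD, against 2.41, 1.13 and 1.03 FPKM in WT livers on CD (log2 fold change 1.21 ± 0.31, limma adjusted p = 0.0219). Nusap1, which bundles spindle microtubules, measured 1.05, 1.75 and 2.84 FPKM in KO livers on CD, against 0, 0.261 and 0.524 FPKM in WT livers on CD (log2 fold change 1.16 ± 0.33, limma adjusted p = 0.0319). In both genes every KO liver was above every WT liver. With the library set as a term no member was called on CD, and Cdk1 had a log2 fold change of 1.18 (limma adjusted p = 0.0933), while 0.938% of all tested genes rose. Without WT on CD replicate 3 or 4, or KO on CD replicate 3, Cdk1 alone was called. Cks2, a CDK-binding subunit, went the other way, at 1.55, 0.299 and 0.442 FPKM in KO livers on CD, against 2.72, 3.51 and 1.96 FPKM in WT livers on CD. The groups did not overlap, and the adjusted p missed the threshold (log2 fold change -1.13 ± 0.38, limma adjusted p = 0.0588). Pcna measured 9.88, 9.20 and 5.91 FPKM in KO livers on CD, against 10.2, 10.9 and 11.4 FPKM in WT livers on CD (log2 fold change -0.37, limma adjusted p = 0.303). With the library set as a term its log2 fold change was 0.12, so the 2 fits differ in direction. Mki67 measured 0.550, 0.374 and 0.592 FPKM in KO livers on CD, against 0.0856, 0.0573 and 0.402 FPKM in WT livers on CD, and these overlapped. Macrophage and Kupffer cell markers summed to 117 to 260 FPKM in KO livers on CD, against 60.0 to 93.1 FPKM in WT livers. Endothelial markers summed to 131 to 142 FPKM, against 87.6 to 90.9 FPKM, so the sums of both lists stood apart on CD as well. By limma 2 of 12 tested macrophage and Kupffer cell markers and 2 of 9 tested endothelial markers rose, where 11.7% of all tested genes rose. Cd14 was listed at 0 in every library of both groups on CD, and Ly6c2 in every WT library on CD. Hepatocyte markers also summed higher, at 6544 to 8975 FPKM in KO livers on CD, against 5514 to 5922 FPKM in WT livers on CD. By limma 1 of the 12 hepatocyte markers rose and 2 fell, where 11.7% and 3.35% of all tested genes did. Summed stellate cell and fibroblast markers stood apart only narrowly, at 147.6 to 160.9 FPKM in KO, against 111.2 to 146.8 FPKM in WT. Of the 10 markers, 7 were tested and 0 were called. Among the tested markers 3 fold changes were above 0 and 4 below, with a median log2 fold change of -0.11. The sums for KO on CD hold no signal from Pdgfrb or Lum, both at 0 throughout that group.

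**Figure D4:**
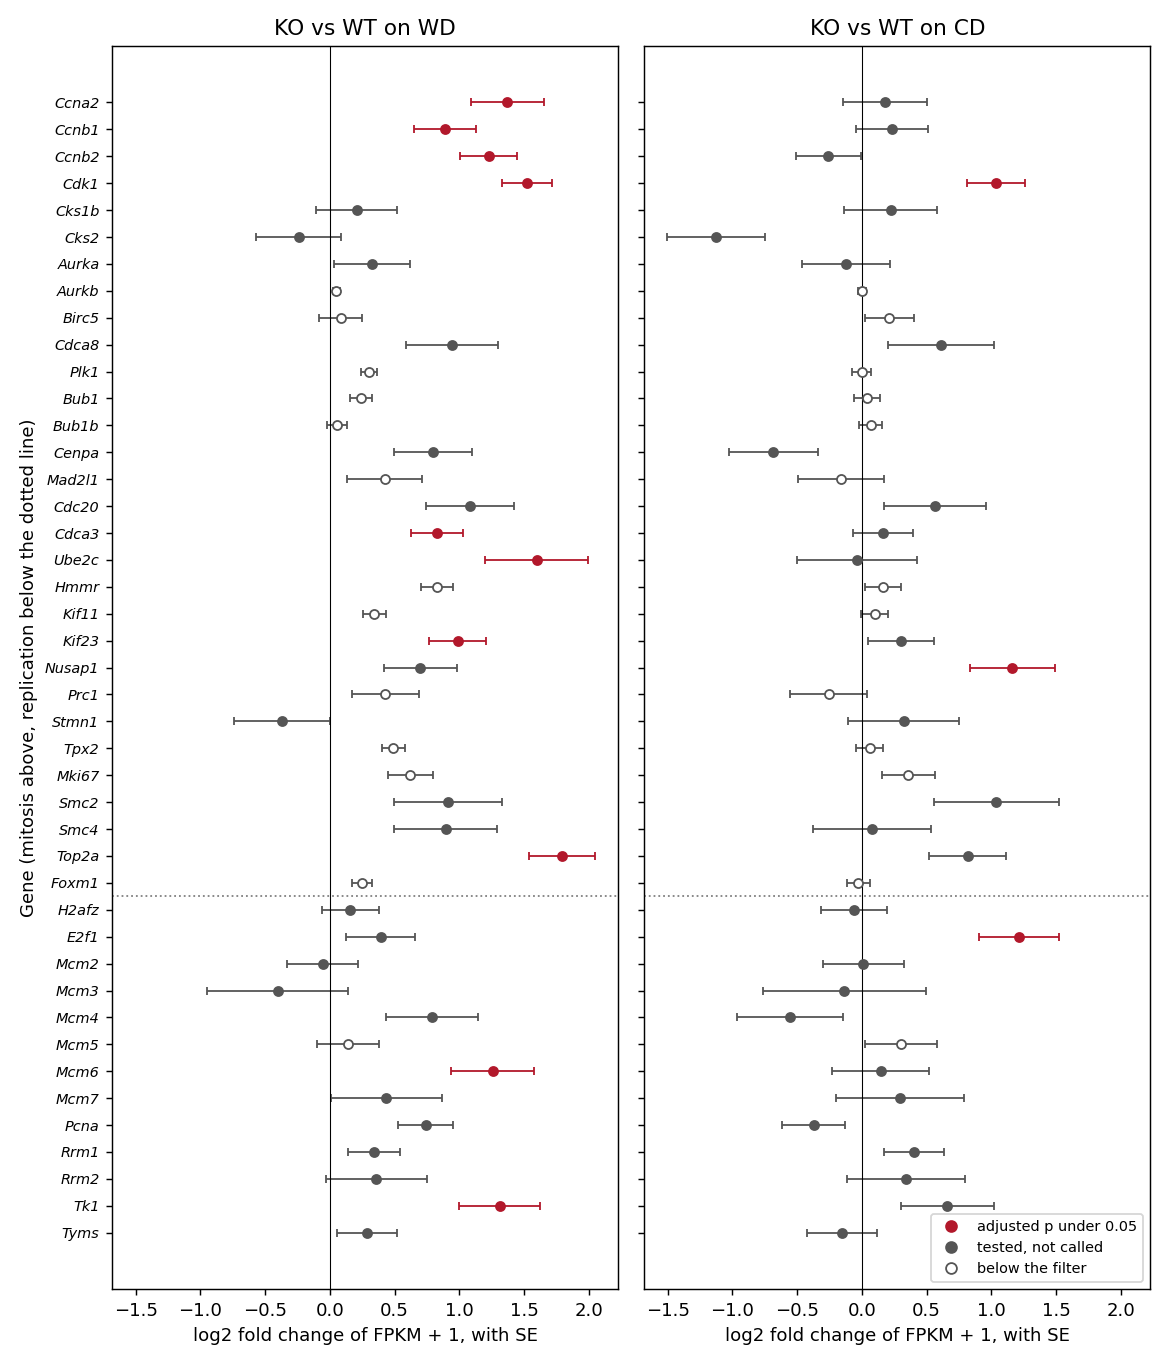
Log2 fold change of FPKM + 1, KO over WT (x axis, bars give SE), for each of the 43 genes (y axis), on WD at the left and on CD at the right. Filled red points passed the test with an adjusted p under 0.05 (10 genes on WD, 3 on CD), filled grey points were tested and did not pass, and open points were below the filter and come from the fit with no filter, where Hmmr, Tpx2 and Plk1 passed on WD.

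Whether the KO effect differs between the diets was tested directly. The KO effect on CD is part of this difference, and on CD the set and the genotype cannot be told apart. No member passed (0 of 30 by limma, where 0.34% of all tested genes passed in either direction), while 9 of the 30 had a larger KO effect on WD and 0 a smaller one at an unadjusted p under 0.05, where 15.7% of all tested genes had a larger and 11.2% a smaller one. With no filter 0 of 43 passed, where 0.107% of all genes did, and 14 were larger and 0 smaller at an unadjusted p under 0.05, against 10.3% and 7.2% of all genes. The effects are therefore not shown to differ between the diets for any member. Of the 30, 8 passed the filter only through the KO on WD libraries, Ccnb2 among them. The counts over the 30 are a description here as well. The lowest adjusted p belonged to Ccnb2 (difference 1.49 ± 0.33 on the log2 scale, limma adjusted p = 0.0610), then to Pcna (1.11 ± 0.32, limma adjusted p = 0.0753) and to Cenpa, the centromere-specific histone (1.48 ± 0.46, limma adjusted p = 0.0802). Cenpa measured 7.04, 9.72, 6.71 and 7.22 FPKM in KO livers on WD, against 4.32, 1.95, 6.22 and 4.27 FPKM in WT livers on WD. On CD the groups overlapped, at 5.48, 4.28 and 2.04 FPKM in KO livers, against 7.80, 4.48 and 7.93 FPKM in WT livers. Cdk1 had a difference of 0.49 ± 0.30 (limma adjusted p = 0.309). Leaving out WT on WD replicate 3, WT on WD replicate 4 or KO on WD replicate 3 gave 2, 3 and 2 called members.

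Within KO livers, WD was set against CD. Of the 30 tested members, 8 were higher on WD and 0 lower by limma, where 3.83% of all tested genes rose and 2.55% fell. With each library centred on its median, 301 of all tested genes rose and 631 fell, against 416 and 277 without centring. With no filter, 5 of the 43 members rose, where 0.894% of all genes did. The 8 were the mitosis genes Ccnb2, Ube2c, Kif23, Top2a, Cdk1 and Ccna2 and the replication genes Pcna and Mcm4. Of these, Ccnb2, Kif23 and Ccna2 passed the filter only through the KO on WD libraries. The counts and medians over the tested members are a description here as well. This comparison shares its KO on WD libraries with the comparison of genotypes on WD. Ccnb2 measured 1.81, 2.15, 2.60 and 1.18 FPKM on WD, against 0.468, 0.277 and 0 FPKM on CD (log2 fold change 1.23 ± 0.24, limma adjusted p = 0.0149). Ube2c measured 0.583, 0.560 and 1.40 FPKM in KO livers on CD, all under the 2.76 to 7.75 FPKM of KO livers on WD (log2 fold change 1.89 ± 0.43, limma adjusted p = 0.0275). Pcna was at 14.6 to 22.9 FPKM in KO livers on WD, against 5.91 to 9.88 FPKM in KO livers on CD (log2 fold change 1.05 ± 0.23, limma adjusted p = 0.0237). Mcm4, a helicase subunit, measured 4.35, 3.80, 2.54 and 2.57 FPKM in KO livers on WD, against 0.247, 0.983 and 0.493 FPKM in KO livers on CD (log2 fold change 1.46 ± 0.39, limma adjusted p = 0.0443). WD lay wholly above CD for 18 of the 43 members and wholly below for 0, where 10.8% and 6.29% of genes above 0 in at least 1 library did. All KO livers on CD belong to set 2 and 3 of the 4 on WD to set 1. With the set as a term 0 members were called, where 0.129% of all tested genes rose, and the median fold change was 0.66 for the tested mitosis genes and 0.34 for the tested replication genes, against 0.07 for all tested genes. Leaving out 1 library gave 1 to 11 called members, the 1 being left without KO replicate 2 on WD or KO replicate 1 on CD. Markers of other cells moved between the diets too. Summed hepatocyte markers were at 4980 to 6440 FPKM in KO livers on WD, wholly below the 6544 to 8975 FPKM of KO livers on CD, and 1 of them, Ttr, fell. Summed stellate cell and fibroblast markers overlapped, at 137 to 180 FPKM in KO livers on WD, against 148 to 161 FPKM in KO livers on CD. Of the 10, 7 were tested and 3 rose (Col1a2, Col3a1 and Lrat), where 3.83% of all tested genes rose. Summed macrophage and Kupffer cell markers overlapped as well, at 211 to 395 FPKM on WD, against 117 to 260 FPKM on CD. Their part in this comparison was not tested.

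Within WT livers, WD against CD called no member (0 of 30 by limma, where 1.3% of all tested genes passed in either direction), and 2 were higher and 2 lower on WD at an unadjusted p under 0.05, where 8.86% of all tested genes were higher and 6.99% lower. With no filter 0 of 43 were called, where 0.493% of all genes were, with 3 higher and 1 lower at an unadjusted p under 0.05. WD lay wholly above CD for Birc5 and Nusap1 and wholly below for Cks2, where 5.92% and 4.22% of genes above 0 in at least 1 library did. Cks2 measured 0.658, 0.423, 1.49 and 0.861 FPKM in WT livers on WD, against 2.72, 3.51 and 1.96 FPKM in WT livers on CD (log2 fold change -1.01 ± 0.35, limma adjusted p = 0.186). Nusap1 measured 1.09, 2.83, 0.954 and 0.742 FPKM in WT livers on WD, against 0, 0.261 and 0.524 FPKM in WT livers on CD (log2 fold change 0.88 ± 0.31, limma adjusted p = 0.187).

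Across the 4 groups, members listed at 0 in every library of a group numbered 0 in KO on WD, 4 in WT on WD (Aurkb, Bub1, Foxm1 and Plk1), 2 in KO on CD (Aurkb and Plk1) and 3 in WT on CD (Aurkb, Bub1 and Plk1). Members at 1 FPKM or more numbered 25 to 31 per library in KO on WD, 13 to 21 in WT on WD, 16 to 18 in KO on CD and 13 to 20 in WT on CD. KO on CD replicate 3 was the highest of its 3 libraries for 22 of the 41 members above 0 there, and WT on CD replicate 4 for 26 of 40. On the mean of the mitosis genes, KO on WD came first, KO on CD second (0.74 to 0.93), WT on WD next (0.62 to 0.80) and WT on CD last (0.49 to 0.83), and the ranges of those last 3 groups overlapped.

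Other cell cycle genes, from lists of textbook members chosen with earlier results known, were scored in the same fits. Of 70 other mitosis genes, 20 passed the filter, and 3 of these rose on WD in KO livers, where 6.01% of all tested genes rose. The filter favours genes that are high in KO livers on WD here too, so counts over the tested genes of these lists are a description. With no filter, 65 of the 70 entered the fit and 9 rose and 0 fell on WD, where 2.61% of all genes rose. Racgap1, a partner of Kif23 in the central spindle, measured 1.34, 2.84, 0.624 and 1.23 FPKM in KO livers on WD, against 0.203, 0, 0.176 and 0.212 FPKM in WT livers on WD (log2 fold change 1.06 ± 0.24, limma adjusted p = 0.0180). Esco2, which acetylates cohesin, measured 1.15 to 4.003 FPKM in KO livers on WD, against 0 to 0.725 FPKM in WT livers on WD (1.40 ± 0.31, limma adjusted p = 0.0153). Cenpm, a centromere protein, measured 7.01 to 11.6 FPKM in KO livers on WD, against 1.21 to 2.48 FPKM in WT livers on WD (1.96 ± 0.44, limma adjusted p = 0.0180). The call of Racgap1 ended under median centring and quantile normalization. The call of Esco2 ended under median centring and without KO replicate 2 or 4 or WT replicate 1 on WD, and that of Cenpm without KO replicate 4 on WD. KO lay wholly above WT on WD for 19 of the 70 and wholly below for 0, where 7.47% and 1.37% of genes above 0 in at least 1 library did. On CD 2 of the 20 rose, where 11.7% of all tested genes rose, Pttg1 (securin, 0.75, limma adjusted p = 0.0219) and Ncapd2 (a condensin subunit, 1.21, limma adjusted p = 0.0327). Of 50 other replication genes, 33 passed the filter. On WD 1 rose, the clamp loader subunit Rfc1 (0.84, limma adjusted p = 0.0277), whose call ended under median centring and without KO replicate 2 or 4 or WT replicate 1, 2 or 4. KO lay wholly above WT for 6 of the 50, again beside 7.47% of genes. On CD 4 rose (Rpa1, Rfc3, Lig1 and Pold1) and 1 fell (Orc6, a subunit of the origin recognition complex, log2 fold change -1.81, limma adjusted p = 0.0265), beside 11.7% and 3.35% of all tested genes. With the library set as a term, 0 genes of either list were called on CD. Between diets in KO livers, Orc6 (1.86, limma adjusted p = 0.0347) and Esco2 (1.21, limma adjusted p = 0.0491) were higher on WD, where 3.83% of all tested genes rose, and both calls ended with the library set as a term.

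Among 20 E2F, RB and DREAM regulators, 12 passed the filter. On WD 2 rose in KO livers, where 6.01% of all tested genes rose. On CD 1 rose, where 11.7% of all tested genes rose. Between diets in KO livers 0 rose and 1 fell, where 3.83% and 2.55% of all tested genes did. Cdkn1c, which encodes the CDK inhibitor p57, measured 13.7, 7.86, 14.8 and 13.6 FPKM in KO livers on WD, against 2.73, 2.47, 3.07 and 1.51 FPKM in WT livers on WD. It measured 10.004, 12.8 and 17.2 FPKM in KO livers on CD, against 1.52, 1.45 and 1.54 FPKM in WT livers on CD. Cdkn1c therefore rose on both diets, with groups that did not overlap (log2 fold changes 1.96 ± 0.23 on WD, limma adjusted p = 0.000179, and 2.49 ± 0.26 on CD, limma adjusted p = 0.000108). E2f3, an activator of S phase genes, measured 1.06, 15.5, 20.7 and 27.6 FPKM in KO livers on WD, against 0.246, 1.501, 0.504 and 0.869 FPKM in WT livers on WD. Replicate 1 of KO lay within the WT range and the other 3 far above it (2.81 ± 0.73, limma adjusted p = 0.0346). The call of E2f3 ended under median centring and without KO replicate 2, 3 or 4 or WT replicate 1, 3 or 4 on WD. Cul3 and its adaptors that act on mitotic kinases make a list of 6 genes. Of these, 5 passed the filter and 1, Klhl13, rose on both diets, beside the same 6.01% and 11.7% of all tested genes. Klhl13, whose human counterpart brings Aurora B to cullin 3, measured 7.11, 6.85, 9.17 and 7.85 FPKM in KO livers on WD, against 3.37, 3.24, 3.99 and 2.77 FPKM in WT livers on WD (1.01 ± 0.20, limma adjusted p = 0.00882). On CD it measured 6.87, 3.98 and 5.37 FPKM in KO livers, against 1.61, 3.37 and 2.40 FPKM in WT livers (0.89 ± 0.23, limma adjusted p = 0.0236). The groups did not overlap on either diet. The call of Klhl13 on WD ended under median centring and quantile normalization. Its call on CD ended with the library set as a term, under quantile normalization and without KO replicate 1 or 3 or WT replicate 1 or 4 on CD.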

How the data were processed

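The 14 libraries of mouse liver RNA were stranded QuantSeq 3′ FWD libraries sequenced on a NovaSeq, per the labels' protocols. The authors deposited 1 table of FPKM values for 43548 genes and 14 libraries. Per the submitters' processing notes, Cufflinks was a tool and mm10 the build. The sources used here do not give how reads were aligned, annotated or split between genes. Gene Yam1 held a placeholder in 8 libraries and was left out. Total counts are not given, so intervals for counting error are not given either.

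The 43 members, the wider gene lists and the tests were chosen with earlier results of these data known. From the deposited FPKM values, log2(FPKM + 1) was fitted in R 4.3.3 by limma 3.58.1, over all 14 libraries with 1 mean per group and 10 residual degrees of freedom, letting the eBayes prior follow mean level. The 10870 genes that reached 1 FPKM in 3 or more libraries were tested, and Benjamini-Hochberg adjustment ran over all of them within a comparison. Members below the filter come from a fit on the 19683 genes above 0 in at least 1 library. The fit was tested on simulated data. Library sets came from average-linkage clustering of shared low-value ratios, with a median sharing of 7.08% within set 1, 4.78% within set 2 and 2.63% between sets. Positions of genes are from GENCODE M21 on mm10, and promoters from RefSeq on GRCm38.p6. Values in every library are given for members called in at least 1 comparison and for Mki67, Pcna, Foxm1, E2f1, Ccnb1 and Plk1. For the other lists up to 6 called genes per comparison are named, except the regulator that fell between diets in KO livers. Other members named were chosen after their values were seen.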

Additional observations from a re-analysis of the deposited data

Results flagged for a closer look

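Among 82 groups of 4 libraries in which a member was measured, 5 had a highest or lowest library whose gap to its neighbour, as a share of the group's range, exceeded Dixon's critical value. Chance flags about 1 in 20 such groups. In KO livers on WD, Ube2c was low in replicate 3 at 2.76 FPKM and Mki67 was high in replicate 2 at 1.91 FPKM. In WT livers on WD, Bub1b was high in replicate 3 at 0.108 FPKM, the other 3 libraries being listed at 0, and replicate 1 was low for Mcm2 at 0.466 FPKM and for Rrm1 at 0.907 FPKM.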

How the results depend on the processing

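On WD, the 10 called members became 4 under quantile normalization and 4 under median centring, 2 in set 1 alone, 0 in set 2 alone (1 KO and 2 WT livers), and 6 with no filter and an offset of 0.1 FPKM, an alternative chosen after the data were seen. Leaving out 1 library gave 4 to 10. On CD, the 3 calls became 0 with the library set as a term, 0 with the Yam1 placeholder mark as a term and 0 with no filter and the set as a term (the last 2 chosen after the data were seen), and leaving out 1 library gave 1 to 4. Between diets in KO livers, the 8 calls became 2 with an offset of 0.1 FPKM, 5 with no filter, 5 at a filter of 2 FPKM, 3 under quantile normalization, 5 under median centring, 4 with the groups compared alone, 3 with no filter and an offset of 0.1 FPKM, and 0 with the set, with the placeholder mark, with no filter and the set, and in set 2 alone, and leaving out 1 library gave 1 to 11. Between diets in WT livers the count was 0 without any 1 library, and for the difference between diets it was 0 to 3. The cause of these changes was not tested, beyond the fewer libraries of some fits. Where no share of all tested genes is given for a fit, its count of members has no background beside it. Of the fold changes given for single genes, those that turned sign under an alternative were all without a call. On WD, Cks1b was -0.075 under quantile normalization, -0.081 under median centring, -0.662 in set 2 alone and -0.049 to 0.473 with 1 library left out (below 0 without KO replicate 4). H2afz was -0.144, -0.129 and, in set 1 alone, -0.040, and -0.011 to 0.323 with 1 library left out (below 0 without WT replicate 1). Tyms was -0.007 under quantile normalization, Aurka -0.054 and Rrm2 -0.023 in set 1 alone. Mcm3 was 0.516 in set 2 alone and -0.68 to 0.024 with 1 library left out (above 0 without KO replicate 4), and Mcm2 was -0.207 to 0.027 (above 0 without KO replicate 3 or WT replicate 4). On CD, Pcna was 0.124 with the library set as a term, with and without the filter.

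With the replicate number as a block, 3 members were called on WD, 0 on CD and 0 between diets in KO livers. The share of all tested genes called in these fits is not given. Same-numbered libraries of 2 groups correlated at -0.297 to 0.158 in their deviations, and 1 of 8 libraries on WD correlated best with its own number. Between KO on WD and KO on CD the correlations were 0.041 to 0.148, and 4 of 6 libraries correlated best with their own number. Not every pair passed 0.1, so the numbers are not taken to pair the samples, with this hint from the data in the KO groups. Depth limits the lowest members, since total counts are not known.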
